A study of Mus musculus with 6 samples.

Results

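The 7 genes described here encode the CDK inhibitors of the mouse: Cdkn1a (p21), Cdkn1b (p27) and Cdkn1c (p57) of the Cip/Kip family, and Cdkn2a (p16Ink4a and p19Arf), Cdkn2b (p15), Cdkn2c (p18) and Cdkn2d (p19Ink4d) of the INK4 family. They were chosen by gene symbol, as whole families and with earlier results of these data known, out of 24503 symbols in the count table. All 7 passed the filter on low counts and were among the 13683 genes tested. RNA-seq was done on primary neural stem cells taken from E13.5 mouse cortex, which had been enriched in neurospheres before growth on laminin in the presence of EGF and FGF. Control cells (WT, n = 3 libraries) were Phf2 flox/flox without Cre, and knockout cells (KO, n = 3 libraries) were Phf2 flox/flox with the Nestin-Cre transgene of the strain B6.Cg-Tg(Nes-cre)1Kln/J, which is active in neural progenitors. Both groups therefore carry the floxed alleles, and only KO carries Cre, so loss of Phf2, a Jumonji-family histone demethylase gene, and presence of Cre cannot be told apart. The sources used here do not say how many embryos or cultures the libraries come from, so p-values measure only how these samples spread, and that spread may be technical.

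CDK inhibitors hold back the cyclin-dependent kinases that drive the cell cycle. Cip/Kip proteins bind cyclin-CDK complexes broadly and inhibit CDK2 most clearly, while INK4 proteins bind CDK4 and CDK6 alone and keep cyclin D from activating them; both act ahead of the phosphorylation of the retinoblastoma proteins that frees E2F factors to switch on S phase genes. In neural stem cells these genes are known for setting quiescence and self-renewal, and Cdkn2a and Cdkn2b for their repression by Polycomb complexes. Cdkn2a makes a pair of unrelated proteins from separate first exons: p16Ink4a, a kinase inhibitor, and p19Arf, which binds Mdm2 and so stabilises p53, the factor that in turn activates Cdkn1a.

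Start sites of Cdkn1a, Cdkn2a and Cdkn2b, the 3 members whose KO levels all lay under their WT levels, are shown because their regulation at these starts is well studied. The sequences are from the RefSeq promoter table (GRCm38.p6), which held 9 windows for 6 of the 7 members; Cdkn1c had no entry. Each line runs 5′ to 3′ on the gene's strand and ends before the first transcribed base of both RefSeq and GENCODE. Capitals mark a match to the p53 site, to the GC box GGGCGG or to the CRE sequence TGACGTCA, and the p16Ink4a line holds none of these.
Cdkn1a, upstream start, chr17:29090729-29090975, plus strand: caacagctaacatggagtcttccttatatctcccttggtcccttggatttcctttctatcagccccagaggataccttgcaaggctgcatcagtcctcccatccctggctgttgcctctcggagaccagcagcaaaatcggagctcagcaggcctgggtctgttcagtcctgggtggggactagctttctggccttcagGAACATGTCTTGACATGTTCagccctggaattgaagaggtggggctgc
Cdkn2a, p19Arf start, chr4:89294654-89294869, minus strand: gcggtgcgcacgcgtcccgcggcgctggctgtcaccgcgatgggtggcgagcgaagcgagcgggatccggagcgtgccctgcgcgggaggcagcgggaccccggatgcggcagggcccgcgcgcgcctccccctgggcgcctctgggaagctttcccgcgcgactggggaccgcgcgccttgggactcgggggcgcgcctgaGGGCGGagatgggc
Cdkn2a, p16Ink4a start, chr4:89282193-89282442, minus strand: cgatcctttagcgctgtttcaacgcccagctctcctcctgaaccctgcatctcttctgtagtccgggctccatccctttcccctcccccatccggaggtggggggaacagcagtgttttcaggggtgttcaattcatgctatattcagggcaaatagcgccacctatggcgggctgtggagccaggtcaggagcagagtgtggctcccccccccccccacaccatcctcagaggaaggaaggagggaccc
Cdkn2b, chr4:89311040-89311282, minus strand: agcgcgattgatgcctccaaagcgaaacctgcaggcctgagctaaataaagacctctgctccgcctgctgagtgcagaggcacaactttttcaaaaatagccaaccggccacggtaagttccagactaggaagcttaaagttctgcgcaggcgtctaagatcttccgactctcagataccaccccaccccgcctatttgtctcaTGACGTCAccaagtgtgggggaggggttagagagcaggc

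The upstream start of Cdkn1a holds a p53 site, searched by its name as a pair of adjoining half-sites of 10 bases with up to 1 mismatch. It lies 51 to 32 bases before the RefSeq start and has 1 mismatch; among all 32851 promoter windows of 300 bases, 29 (0.0883%) hold such a site. The window at the downstream start of Cdkn1a, which is not printed, holds GGGCGG before the start and no p53 site. Cdkn2b holds TGACGTCA 46 to 39 bases before its start, which is present in 1.79% of windows. GGGCGG, read on both strands, is present in 35.7% of windows and in a window of each of the 6 members; in the p16Ink4a and Cdkn2b windows it lies after the start, outside the printed part. TTTGGCGC or TTTCGCGC, forms of the E2F site, was present in 0.813% of windows and was not found in these letters of any member. Other forms of the E2F site, such as TTTCCCGC, which the p19Arf line holds, were not searched. CACGTG, the E-box, was present in 7.15% of windows and found only in the second window of Cdkn2c, after the start. These matches describe the letters and not the binding of a factor.

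Depth, libraries and labels were as follows. Total counts ranged from 33413444 to 46890314 per library, and every member had at least 145 counts in every library. Phf2, the targeted gene, ranged from 48.1 to 56.3 CPM in KO and from 77.8 to 109 CPM in WT, with no overlap, where CPM is a gene's count per 1000000 counts of the library, with totals scaled by TMM. The table has 1 row for the whole gene, so the floxed exons are not counted apart. The libraries numbered 1 stood apart from numbers 2 and 3 in both groups, with 57.6% of genes different between them at adjusted p under 0.05. Each comparison is therefore given without and with the replicate number as a block, and within numbers. Of the pairs within a group, KO 2 and KO 3 differed least. Neural stem cell markers were abundant in all libraries (10 of 10 measured, summed at 9425 to 10790 CPM in WT and 9311 to 10590 CPM in KO), while microglial markers summed to at most 1.14 CPM with 5 of 8 at 0 counts, and endothelial markers to at most 2.82 CPM with Cdh5 at 0 counts.

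In knockout cells the RNA of both genes of the Ink4a/Arf and Ink4b locus, and that of Cdkn1a and Cdkn1c, was lower by nearly the same amount in both fits. Among edgeR fits of all 6 libraries, these genes passed the test only with a block. Without the block the estimates for Cdkn2b, Cdkn2a, Cdkn1c and Cdkn1a were −49.5%, −44.2%, −35.2% and −19.9%, with edgeR adjusted p of 0.177, 0.206, 0.999 and 0.470. With the replicate block Cdkn2b fell by 49.6%, Cdkn2a by 43.6%, Cdkn1c by 33.7% and Cdkn1a by 19.9%, and the other 3 members, Cdkn1b, Cdkn2c and Cdkn2d, did not pass, with estimates 11% to 12% above WT. Thus 4 of 7 members were called lower and 0 higher by edgeR's quasi-likelihood test with the block (6 at an unadjusted p under 0.05, where 23.7% of all genes passed), and 6.46% of all genes were called lower and 3.33% higher. Without the block edgeR called 0 of 7 members (3 at an unadjusted p under 0.05, where 5.81% of all genes passed), and 0.0585% of all genes were called; DESeq2 called 2 lower, Cdkn2a and Cdkn2b, beside 1.3% of all genes. Other fits with a block called 4 members lower, beside 4.75% of all genes with DESeq2, 7.18% with upper-quartile scaling and 6.83% where the block only set number 1 apart. With KO 2 and KO 3 summed, 2 members were called lower beside 3.8% of all genes, and in numbers 2 and 3 alone 3 beside 3.57%. With the block and without number 1, 2 or 3 in both groups, 3, 4 and 4 members were called lower beside 4.93%, 5.36% and 6.48% of all genes. In each of the 3 numbers these 4 members were lower in KO, as were 23.6% of all genes. The members' median log2 fold change was −0.32 in either fit, against 0.01 over all genes. Since the members were chosen with earlier results known, these counts beside the shares of all genes are not independent evidence.

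**Figure D1:**
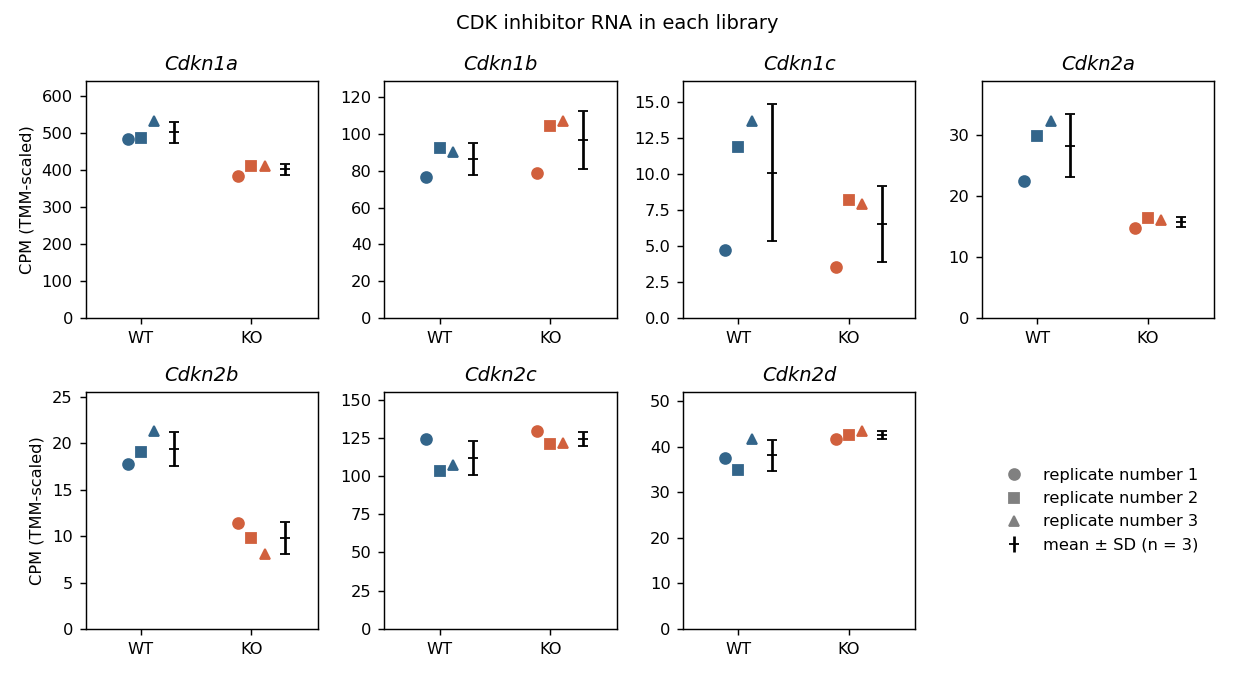
TMM-scaled CPM (y axis, from 0) of each CDK inhibitor gene in the 3 WT and 3 KO libraries; point shape gives the replicate number, and the black bar gives the mean ± SD. Cdkn1a, Cdkn2a and Cdkn2b have no overlap between groups, and Cdkn1c is lowest in number 1 of either group.

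Among the Cip/Kip genes, Cdkn1a lies on chromosome 17 (29090976 to 29100727, plus strand, GRCm38, GENCODE vM21) and encodes p21, the inhibitor through which p53 stops the cycle. Its level was 485, 488 and 534 CPM in WT 1, 2 and 3 and 385, 412 and 410 CPM in KO 1, 2 and 3. All KO libraries thus lay below all WT libraries, and the spread within each group was small beside the gap. The log2 fold change was −0.32 ± 0.0648 (SE) with the block, with a Benjamini-Hochberg adjusted p = 0.0125 from edgeR, and −0.32 ± 0.0905 without it, adjusted p = 0.470. Within numbers it was −0.34 (number 1), −0.24 (number 2) and −0.38 (number 3). In numbers 2 and 3 alone the edgeR adjusted p was 0.0577, and with KO 2 and KO 3 summed as 1 library it was 0.0770. A GENCODE model awaiting experimental support (AC167363.2) overlaps Cdkn1a on the opposite strand, and since the strand setting is not given, reads of the overlap cannot be told apart.

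Cdkn1b, which encodes p27, the inhibitor that accumulates as progenitors leave the cycle and is removed by the Skp2 ubiquitin ligase, lies on chromosome 6 (134920401 to 134925513, plus strand). It was measured at 76.5, 92.2 and 90.4 CPM in WT 1, 2 and 3 and at 78.5, 104 and 107 CPM in KO 1, 2 and 3. The groups overlapped, and number 1 was the low library of each group. Its log2 fold change was 0.15 ± 0.0671 (SE) with the block, with edgeR adjusted p = 0.198, and 0.16 ± 0.152 without it, with adjusted p = 0.999.

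Cdkn1c encodes p57, an imprinted inhibitor expressed from the maternal allele that promotes cell cycle exit, and lies on chromosome 7 (143458339 to 143461050, minus strand). It was the lowest member, at 4.72, 11.9 and 13.7 CPM in WT 1, 2 and 3 and 3.53, 8.20 and 7.88 CPM in KO 1, 2 and 3, from 145 to 646 counts. The groups overlapped over all libraries, since WT 1 lay below KO 2 and KO 3, but within each number KO lay below WT. For genotype the log2 fold change was −0.59 ± 0.118 (SE) with the block, edgeR adjusted p = 0.0111, and −0.63 ± 0.483 without it, adjusted p = 0.999. Within numbers it was −0.42, −0.53 and −0.80 for numbers 1, 2 and 3, and numbers 2 and 3 alone gave −0.67 ± 0.112 with edgeR adjusted p = 0.0268. With KO 2 and KO 3 summed the edgeR adjusted p was 0.0525. An annotated antisense transcript (Gm44732) overlaps Cdkn1c, so its reads cannot be told apart from those of Cdkn1c without strand.

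Among the INK4 genes, Cdkn2a and Cdkn2b are neighbours on the minus strand of chromosome 4, at 89274471 to 89294653 and 89306299 to 89311039, with 11645 bases between them. Cdkn2a was measured at 22.6, 30.0 and 32.4 CPM in WT 1, 2 and 3 and at 14.8, 16.4 and 16.2 CPM in KO 1, 2 and 3. The groups did not overlap, and the KO libraries lay close together (15.8 ± 0.859 CPM, SD, n = 3). This was a log2 fold change of −0.83 ± 0.0935 (SE) with the block, edgeR adjusted p = 0.000503, and −0.84 ± 0.164 without it, adjusted p = 0.206. Counts are per gene symbol, so p16Ink4a and p19Arf transcripts, whose start sites are printed above, are summed in this value and their shares were not measured.

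Cdkn2b, whose product p15 is known as an inhibitor induced by TGF-beta, was measured at 17.7, 19.1 and 21.3 CPM in WT 1, 2 and 3 and at 11.5, 9.83 and 8.06 CPM in KO 1, 2 and 3. Here too the groups did not overlap. With all libraries the log2 fold change was −0.99 ± 0.135 (SE) with the block, edgeR adjusted p = 0.00145, and −0.98 ± 0.171 without it, adjusted p = 0.177. Within numbers it was −0.63, −0.96 and −1.40 for numbers 1, 2 and 3, and for Cdkn2a −0.61, −0.87 and −1.002. The change was thus smallest in number 1 for both genes. The difference between number 1 and numbers 2 and 3 in the size of the change was 0.54 ± 0.221 (log2, SE) for Cdkn2b (edgeR unadjusted p = 0.0457) and 0.33 ± 0.154 for Cdkn2a (edgeR unadjusted p = 0.0715). Neither passed Benjamini-Hochberg adjustment, under which edgeR called 0 of 13683 genes for this difference (472, or 3.45%, at an unadjusted p under 0.05). Cdkn1a, Cdkn2a and Cdkn2b were the 3 members with no overlap between groups, all lower in KO, where 6.71% of all genes tested had KO wholly below WT.

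For the other INK4 genes the estimates were above 0, but neither passed. Cdkn2c, on chromosome 4 (109660876 to 109667189, minus strand), encodes p18, an inhibitor found in cycling neural progenitors. It was measured at 124, 103 and 107 CPM in WT 1, 2 and 3 and at 129, 121 and 122 CPM in KO 1, 2 and 3. The groups overlapped through WT 1. Its log2 fold change was 0.16 ± 0.0643 (SE) with the block, edgeR adjusted p = 0.173, and 0.15 ± 0.104 without it, adjusted p = 0.999.

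Cdkn2d, on chromosome 9 (21288410 to 21291407, minus strand), encodes p19Ink4d, which is known to persist in postmitotic neurons. It was measured at 37.6, 34.98 and 41.7 CPM in WT 1, 2 and 3 and at 41.7, 42.7 and 43.4 CPM in KO 1, 2 and 3. KO 1 lay just below WT 3, and the remaining KO libraries lay above all WT libraries. The estimate was 0.16 ± 0.0752 (SE) with the block, edgeR adjusted p = 0.224, and 0.16 ± 0.107 without it, adjusted p = 0.999. Without number 3 in both groups, with the block, it was 0.22 with edgeR adjusted p = 0.0487.

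**Figure D2:**
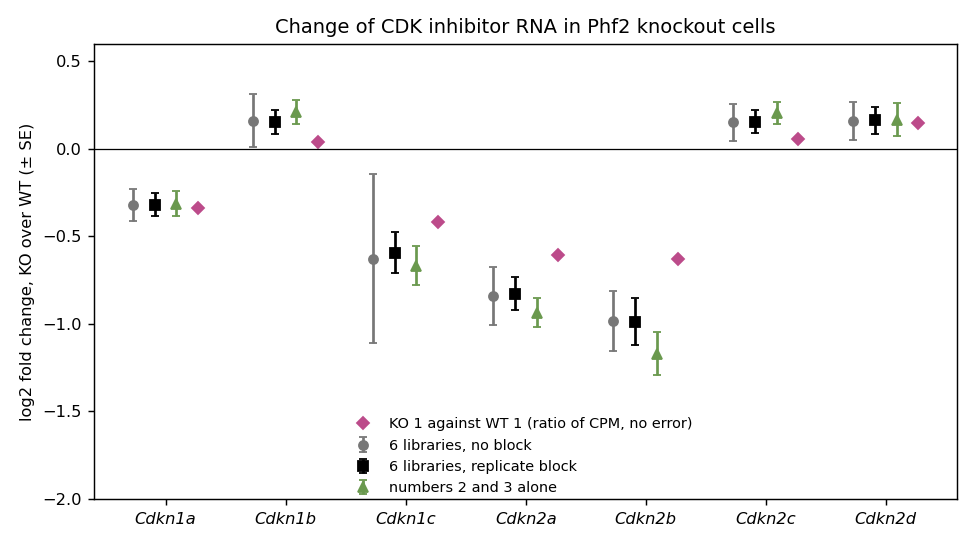
Log2 fold change of KO over WT (y axis) for each CDK inhibitor gene, from all 6 libraries without and with the replicate block and from numbers 2 and 3 alone (± SE), and the plain ratio of KO 1 to WT 1. Cdkn1a, Cdkn1c, Cdkn2a and Cdkn2b are below 0 in every estimate, and the bar of Cdkn1c shortens from 0.483 to 0.118 with the block.

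Levels of different members were compared per length, as counts per kilobase of exon, scaled so that all genes with a length sum to 1000000 in each library. Cdkn1a was the most abundant member by far, at 535 ± 20.5 in WT and 424 ± 26.2 in KO (SD, n = 3), and ranked 302 of 23334 genes by its mean over all libraries. Cdkn2c followed at 157 ± 14.5 in WT and 173 ± 2.42 in KO. In WT, Cdkn2d (91.4 ± 4.26), Cdkn2a (91.4 ± 16.8) and Cdkn1b (71.9 ± 8.91) came next; Cdkn2a and Cdkn2d did not differ beyond their spread, while Cdkn1b lay below both in each of the 3 libraries, though its range overlapped that of Cdkn2a. Cdkn2b (52.7 ± 4.35) and Cdkn1c (18.7 ± 8.75) were the lowest. In KO the order was Cdkn1a, Cdkn2c, Cdkn2d (101 ± 4.46), Cdkn1b (79.6 ± 14.7), Cdkn2a (50.5 ± 3.90), Cdkn2b (26.3 ± 3.98) and Cdkn1c (12.1 ± 5.01). Cdkn2a thus stood level with Cdkn2d in WT and below both Cdkn2d and Cdkn1b in KO.

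The makeup of each family's RNA is given as shares. Cdkn2a and Cdkn2b together made up 31.3%, 39.3% and 39.3% of length-scaled INK4 RNA in WT 1, 2 and 3. In KO 1, 2 and 3 they made up 21.9%, 22.6% and 21.2%. Every KO library had a smaller share than any WT library. Cdkn2c and Cdkn2d make up the rest. Cdkn2c was 40.1% ± 4.63 of INK4 RNA in WT and 49.2% ± 1.06 in KO (SD, n = 3), and the share of Cdkn2d was 23.3% ± 0.999 and 28.9% ± 1.07. In the Cip/Kip family Cdkn1a made up 85.6% ± 1.91 in WT and 82.4% ± 2.37 in KO. The shares of Cdkn1b were 11.5% ± 0.833 and 15.4% ± 1.57, and those of Cdkn1c 2.95% ± 1.27 and 2.29% ± 0.810. The groups overlapped for Cdkn1a and Cdkn1c and not for Cdkn1b. Shares of a whole move together and were not tested, and RNA shares do not measure protein, which for p27 is set largely by its breakdown.

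**Figure D3:**
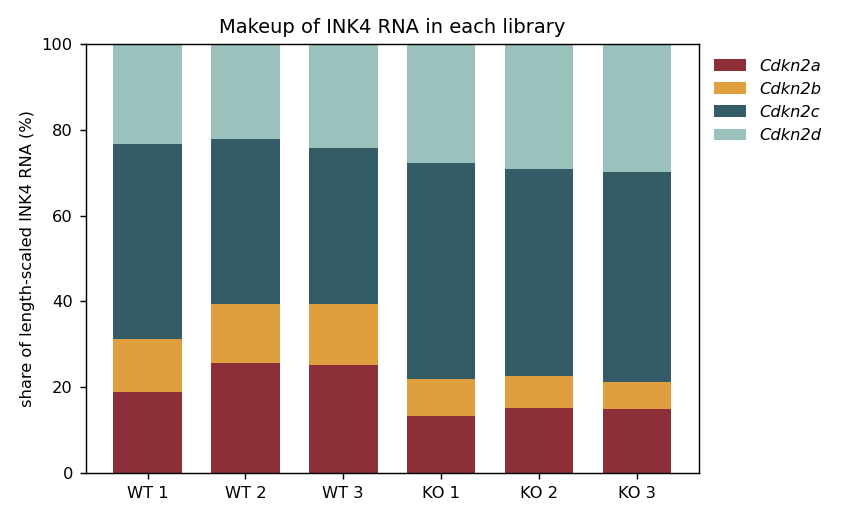
Share of length-scaled INK4 RNA (y axis, percent) held by Cdkn2a, Cdkn2b, Cdkn2c and Cdkn2d in each library (x axis). Cdkn2a and Cdkn2b together take 31.3% to 39.3% in WT libraries and 21.2% to 22.6% in KO libraries.

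Between number 1 and numbers 2 and 3, 4 of 7 members differed, a share near the 57.6% of all genes that did. Cdkn1c was lower in number 1 than in numbers 2 and 3 by −1.32 ± 0.122 (log2, SE; edgeR adjusted p = 3.64e-05, genotype as covariate), beside −0.59 for genotype. Cdkn1b was lower by −0.34 ± 0.0625 (adjusted p = 0.00163) and Cdkn2a by −0.31 ± 0.0937 (adjusted p = 0.0203), while Cdkn2c was higher by 0.17 ± 0.0583 (adjusted p = 0.0358, and 0.118 with upper-quartile scaling). Cdkn1a (−0.09 ± 0.0606), Cdkn2b (0.07 ± 0.139) and Cdkn2d (−0.04 ± 0.0812) did not pass. In all, 3 members were lower and 1 higher in number 1, where 29.4% of all genes were lower and 28.2% higher. The sources used here do not say what the number stands for.

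**Figure D4:**
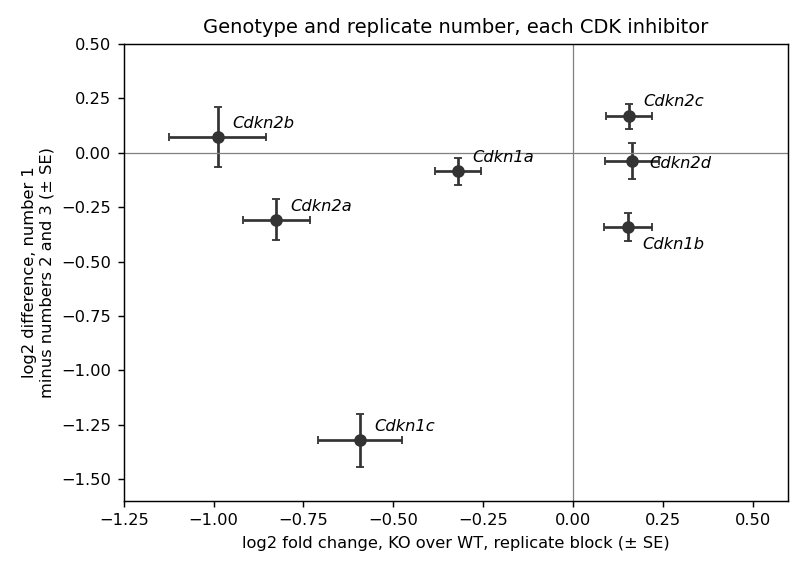
Each CDK inhibitor gene by its KO over WT log2 fold change with the replicate block (x axis) and its log2 difference between number 1 and numbers 2 and 3 (y axis), both ± SE. Cdkn2b lies far left near 0 on the y axis, and Cdkn1c is the lowest point, at −1.32.

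Among the genes that CDK inhibitors act on, 1 of 5 G1 cyclins and kinases passed with the block (2 at an unadjusted p under 0.05), where 9.79% of all genes were called and 23.7% were at an unadjusted p under 0.05. Of these 5 G1 cyclins and kinases, Ccnd2, the D-type cyclin of neural progenitors, fell with the block from 1489 ± 189 to 1125 ± 104 CPM (log2 fold change −0.40 ± 0.0759, SE, edgeR adjusted p = 0.00880; 0.616 without the block); the call was lost with KO 2 and KO 3 summed and in numbers 2 and 3 alone. Ccnd1 (2012 and 1948 CPM in WT and KO) and Cdk4 (492 and 543 CPM) did not pass. They encode a cyclin D and a kinase that INK4 proteins keep it from activating. Among 8 genes of cyclins E, A and B and their kinases, edgeR called 0 with the block (6 at an unadjusted p under 0.05), with a median log2 fold change of 0.20; the most abundant, Ccna2 and Ccnb1, which act in S phase and mitosis, had 0.26 ± 0.0799 and 0.20 ± 0.0649 (SE). Of the 3 retinoblastoma family genes edgeR called 0 (2 at an unadjusted p under 0.05), with Rb1 at 97.9 and 110 CPM and Rbl1 at 58.5 and 70.6 CPM in WT and KO.

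Downstream, 4 of 20 E2F target genes rose with the block, where 3.33% of all genes were called higher. At an unadjusted p under 0.05 there were 16 of the 20, against 23.7% of all genes. The median over the list was 0.22 (log2), against 0.01 over all genes. This list was chosen with earlier results of these data known, so its counts are not independent evidence. Uhrf1, a partner of the maintenance DNA methyltransferase, rose by 0.36 ± 0.0747, and the replicative helicase genes Mcm6 and Mcm3 by 0.25 ± 0.0669 and 0.24 ± 0.0637 (log2, SE; edgeR adjusted p from 0.0142 to 0.0445). E2f8, a repressor among the E2F factors, rose by 0.41 ± 0.0871 (1 of 10 E2F and DP genes), and Foxm1 and Mybl2, activators of mitotic genes, by 0.30 ± 0.0803 and 0.32 ± 0.0887 (2 of 7 DREAM and MuvB genes). Pkmyt1, a kinase that inhibits CDK1, rose by 0.32 ± 0.0871. With KO 2 and KO 3 summed, and without the block, edgeR called 0 genes of the E2F and DP, DREAM and MuvB, and Wee kinase lists. Without the block edgeR called 0 of the 20 E2F targets (0 at an unadjusted p under 0.05). With KO 2 and KO 3 summed it also called 0. In numbers 2 and 3 alone it called 6, beside 1.82% of all genes called higher. All 20 were higher in number 1 than in numbers 2 and 3 (median 0.71, log2), as were 28.2% of all genes. Number 1 also held the lower levels of Cdkn1b, Cdkn1c and Cdkn2a and the higher levels of Cdkn2c given above. Cdkn1a, Cdkn2b and Cdkn2d did not pass between the numbers. A link between members and E2F targets over the numbers was not tested.

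On the p53 side, which acts on Cdkn1a, 7 of 28 target genes other than the members fell and 1 rose with the block. Over all genes 6.46% were called lower and 3.33% higher. The list's median was −0.14 (log2). The list holds genes already known to move in these libraries, so its direction is not independent evidence. Gdf15, a stress cytokine gene, fell from 34.8 ± 10.5 to 20.0 ± 3.99 CPM, and Ddit4l, an inhibitor of mTOR signalling, from 76.4 ± 7.42 to 55.0 ± 7.13 CPM (SD, n = 3). Ptp4a3, a phosphatase gene, fell by 0.38 ± 0.0642 on the log2 scale, with edgeR adjusted p = 0.00514. Trp53 itself was at 142, 102 and 111 CPM in WT 1, 2 and 3 and 153, 120 and 118 CPM in KO 1, 2 and 3, and Mdm2 at 108, 112 and 108 CPM and 103, 101 and 103 CPM. Neither passed with the block (edgeR adjusted p = 0.196 and 0.413), nor did Usp7 or Mdm4, the most abundant of 8 p53 regulators. Without the block edgeR called 0 of the 28 targets (7 at an unadjusted p under 0.05). With KO 2 and KO 3 summed 3 fell, beside 3.8% of all genes.

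Among 17 Polycomb genes, whose complexes repress the Ink4a/Arf locus, 3 rose with the block, beside 3.33% of all genes called higher. The median was 0.12 (log2). This list too was chosen with earlier results of these data known, so its count is not independent evidence. Cbx2, a chromobox subunit, went from 21.6 ± 6.26 to 31.3 ± 4.35 CPM (log2 fold change 0.56 ± 0.0921, SE), and Bmi1, the subunit best known for repressing Cdkn2a in neural stem cells, from 119 ± 19.02 to 142 ± 17.1 CPM (0.25 ± 0.0624). For Cbx2 and Bmi1 the edgeR adjusted p was 0.00413 and 0.0319 with the block, and 0.878 and 0.999 without it. With KO 2 and KO 3 summed 1 of the 17 rose, beside 1.13% of all genes. In numbers 2 and 3 alone 2 rose and 1 fell, beside 1.82% and 3.57% of all genes. Of 15 other tested regulators of INK4 genes, 1 rose and 2 fell with the block, beside 3.33% and 6.46% of all genes. Trim71, which encodes an RNA-binding ubiquitin ligase, rose by 1.56 ± 0.185 at low levels (means of 1.33 CPM in WT and 3.88 CPM in KO). Hmga1, an architectural chromatin protein gene, fell by 0.60 ± 0.0710 and Id2, an inhibitor of bHLH factors, fell by 0.42 ± 0.0689 (log2, SE). For Trim71, Hmga1 and Id2 the edgeR adjusted p was 0.000652, 0.000675 and 0.00433 with the block, and 0.262, 0.999 and 0.999 without it. Id2 had 210 ± 140 CPM in WT and 152 ± 96.5 CPM in KO, a spread within groups that came with the replicate number.

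**Figure D5:**
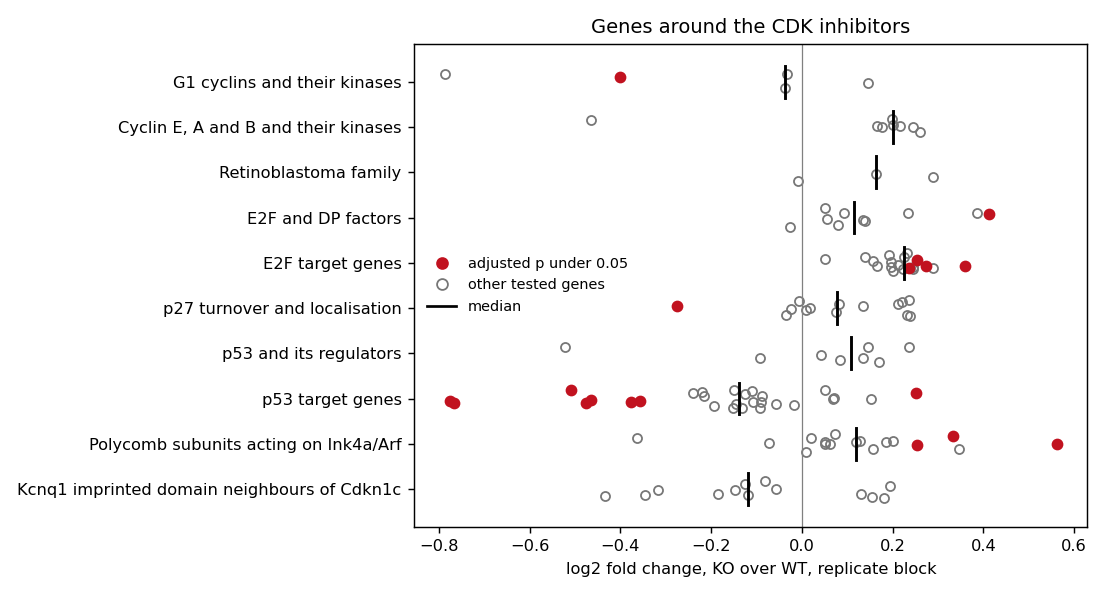
Log2 fold change of KO over WT with the replicate block (x axis) for the tested genes of 10 lists around the CDK inhibitors (y axis); filled points have adjusted p under 0.05 and the black line is the list's median. Filled points lie to the right for E2F targets (4 of 20) and Polycomb genes (3 of 17). Those of p53 targets lie mostly to the left (7 lower, 1 higher, of 28). Over all genes 3.33% were called higher and 6.46% lower. The lists were chosen with earlier results of these data known.

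Of 14 genes listed around p27 turnover and localisation, 1 passed with the block, near the 9.79% of all genes. At an unadjusted p under 0.05 there were 7, where 23.7% of all genes passed. The gene that passed was Fbxw7, a ubiquitin ligase subunit that removes cyclin E. Fbxw7 fell by 0.28 ± 0.0678 (log2, SE), with edgeR adjusted p = 0.0312, and 0.775 without the block. The call was lost with KO 2 and KO 3 summed and in numbers 2 and 3 alone. Skp2 was at 67.5, 27.2 and 24.4 CPM in WT 1, 2 and 3 and at 70.4, 33.8 and 31.2 CPM in KO 1, 2 and 3, so it followed the replicate number (1.25 on the log2 scale) and did not pass for genotype (edgeR adjusted p = 0.0991 with the block). For 4 FOXO factors, 6 genes of CDC25 phosphatases and the CDK-activating kinase, 17 genes of the MYC, MIZ1 and SMAD regulators, and 10 CDK-binding genes outside both families, edgeR called 0 with the block (1, 2, 7 and 1 at an unadjusted p under 0.05). Among 10 senescence-associated genes other than the members, Lmnb1, a nuclear lamina gene lost in senescent cells, rose by 0.30 ± 0.0767 and Hmgb2 by 0.30 ± 0.0757, while Igfbp7, a secreted factor at about 1 CPM, changed by −0.94 ± 0.245 (log2, SE; edgeR adjusted p from 0.0333 to 0.0385 with the block). None of these 3 was called without the block or with KO 2 and KO 3 summed. The other genes of the KDM7 family, Phf8 and Kdm7a, did not pass (edgeR adjusted p = 0.466 and 0.586 with the block).

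None of the tested neighbours of the members passed with the block, where 9.79% of all genes were called and 23.7% were at an unadjusted p under 0.05. Of 13 tested genes around Cdkn1c in and next to the Kcnq1 imprinted domain, edgeR with the block called 0 (1 at an unadjusted p under 0.05), with Cd81 at −0.18 ± 0.0667 and Nap1l4 at −0.06 ± 0.0618 (log2, SE). Kcnq1ot1, the noncoding RNA that silences the domain on the paternal allele, had a log2 fold change of 0.19 ± 0.154 (SE, edgeR adjusted p = 0.504). Of 4 tested genes on either side of Cdkn2a and Cdkn2b, edgeR called 0 (1 at an unadjusted p under 0.05). They lay 93390 to 1956110 bases from Cdkn2a, so most were not adjacent to it. Mtap, a methionine salvage gene 93390 bases away, had −0.04 ± 0.0645 and Klhl9, 552006 bases away, 0.05 ± 0.0644. Of 11 tested neighbours of the remaining members, edgeR called 0 (0 at an unadjusted p under 0.05), among them Srsf3, 47603 bases from Cdkn1a, at 0.12 ± 0.0672 and Kri1, 441 bases from Cdkn2d, at 0.10 ± 0.0724.

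Markers of other cell types moved in part with the members, and in bulk RNA fewer cells of a type and less RNA per cell cannot be told apart. With the block, where 6.46% of all genes were called lower and 3.33% higher, 5 of 9 tested neuronal markers fell. Among them were Syt1 and Myt1l, with Myt1l at low means of 1.1 CPM in WT and 0.208 CPM in KO. The number that fell was 2 with KO 2 and KO 3 summed, beside 3.8% of all genes. It was 2 in numbers 2 and 3 alone, beside 3.57%, and 0 without the block. The summed level of the 10 neuronal markers was 591 to 824 CPM in WT and 672 to 805 CPM in KO, so it overlapped. Of 10 neural stem cell markers Prom1 fell and Hes5 rose with the block, and the call of Hes5 was lost with KO 2 and KO 3 summed. Of 8 astrocyte markers 4 fell and 2 rose, with sums of 745 to 1835 CPM in WT and 951 to 2336 CPM in KO. Of 8 tested oligodendrocyte lineage markers 2 fell and 1 rose, with sums of 3515 to 4270 CPM and 3421 to 3673 CPM. One of them, Nkx2-2, a transcription factor gene of the lineage, was at 67.4 to 71.7 CPM in WT and 28.01 to 31.4 CPM in KO and was called also without the block (log2 fold change −1.23 ± 0.0975, SE, edgeR adjusted p = 0.0316). Mural cell markers summed to 199 to 473 CPM in WT and 213 to 468 CPM in KO, meningeal fibroblast markers to 34.8 to 46.3 and 40.02 to 65.3 CPM, and ependymal markers to 23.0 to 53.2 and 17.7 to 38.6 CPM. Cspg4 is in both the mural and the oligodendrocyte lineage list, so the mural sum is not particular to mural cells. With the block 0 of 4 tested mural markers passed; 2 of 4 meningeal markers rose and 1 fell, also with KO 2 and KO 3 summed, and 1 of 4 ependymal markers, Foxj1, fell, a call lost in the summed fit. The meningeal markers were Twist1, at most 0.0652 CPM in WT and 0.476 to 0.754 CPM in KO, Foxc1 at 32.5 to 44.96 and 38.4 to 63.8 CPM, and Col1a2, which fell from 0.735 to 0.191 CPM. The part of these cell types in the members' changes was not tested.

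Genes most like each member over the 6 libraries were found by Pearson's r of log2 CPM among 10282 genes averaging 5 CPM or more. They were Lpar2 and Ifitm3 for Cdkn1a (r = 0.997 and 0.994), Fgf14 and Cat for Cdkn1b (0.998 and 0.997), Dhrs1 and Ptp4a3 for Cdkn1c (0.998 for each) and Gsta4 and Camkk1 for Cdkn2a (0.998 and 0.995). They were Rcan1 and Thumpd2 for Cdkn2b (0.997 and 0.995), Pkmyt1 and Lta4h for Cdkn2c (0.997 and 0.995) and Taf8 and Fam122a for Cdkn2d (0.972 and 0.970). From 40 genes (Cdkn2d) to 1329 genes (Cdkn1c) had r over 0.9, and the libraries share the genotype and number patterns, so these values only describe the order of 6 points.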

How the data were processed

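RNA of 6 libraries (WT and KO, 3 each) was analysed from the deposited table, which holds raw counts as whole numbers for each gene symbol. The submitters' processing notes name RSEM, Bowtie2, Trim Galore, cutadapt and FastQC and the build mm10; the sources used here do not give versions, annotation, strand setting or rounding. Group and replicate number came from the sample titles. Members and gene lists were chosen with earlier results of these data known, and the motifs after the sequences were seen.

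Genes were kept by filterByExpr (13683 of 24503), scaled by TMM and tested in R 4.3.3 with edgeR 4.0.16 (robust quasi-likelihood fit, glmQLFTest, two-sided), with Benjamini-Hochberg adjustment over all genes tested and a threshold of 0.05. SE is the log2 fold change over the root of F. The fit without a block was the main design. Deviations from group means correlated at 0.854, 0.604 and 0.580 for the pairs numbered 1, 2 and 3, all over 0.1, so the numbers were treated as pairs; the labels do not state a pairing, and WT 2 with KO 3 (0.633) and WT 3 with KO 2 (0.578) were as high. Lengths and positions came from GENCODE vM21 (GRCm38), with 95.2% of symbols matched. DESeq2 1.42.0 was an alternative. Scripts were tested on simulated data.

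Named genes were the members, Phf2, up to 3 genes per list with the lowest p among those called with the block (or, where fewer than 2 were called, the 2 with the highest CPM), and the 2 genes most like each member. Trp53, Mdm2, Skp2, Kcnq1ot1, Kri1, Lmnb1, Hmgb2, Igfbp7, Syt1, Myt1l, Prom1, Hes5, Nkx2-2, Foxj1, Twist1, Foxc1 and Col1a2 were named after their values were seen. A gene that the rule names is not reported here. KO 2 and KO 3 differed by more than counting noise (median chi-square 1.02 per gene, 19.5% of genes over the 95% limit) and were kept as 2 samples. They were far closer than the other pairs within a group, whose medians ran from 5.25 (WT 2 and WT 3) to 34.5 (WT 1 and WT 3). In those pairs 55.6% to 80.8% of genes were over the limit.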

Additional observations from a re-analysis of the deposited data

How the results depend on the processing

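The members kept their direction in all 140 pairs of a member with 1 of 20 alternatives; what changed was the call, since no edgeR fit that held libraries of all 3 numbers called a member without a block. With the replicate block the log2 fold changes of Cdkn1a, Cdkn1c, Cdkn2a and Cdkn2b were −0.32, −0.59, −0.83 and −0.99, all called (4 lower). They were also called with upper-quartile scaling and the block (−0.35, −0.62, −0.86 and −1.02; 4 lower), with DESeq2 and the block (−0.31, −0.58, −0.81 and −0.98; 4 lower) and with number 1 against the others as block (−0.32, −0.60, −0.83 and −0.99; 4 lower). DESeq2 without a block called Cdkn2a (−0.83) and Cdkn2b (−0.97), and KO 2 and KO 3 summed called the same 2 (−0.80 and −0.93). Numbers 2 and 3 alone called 3, Cdkn1c (−0.67), Cdkn2a (−0.94) and Cdkn2b (−1.17). Leaving out 1 number from both groups with the block called 3 to 4 members lower, and 1 higher without number 3, with ranges of −0.35 to −0.29 for Cdkn1a (not called without number 1, adjusted p = 0.0939), −0.66 to −0.48 for Cdkn1c, −0.94 to −0.74 for Cdkn2a, −1.18 to −0.79 (−1.003 without number 2) for Cdkn2b and 0.11 to 0.22 for Cdkn2d. Leaving out 1 library without a block gave −0.34 to −0.28 for Cdkn1a, −0.96 (without WT 1) to −0.33 (without KO 1) for Cdkn1c, −0.97 to −0.74 for Cdkn2a and −1.11 to −0.86 for Cdkn2b, with 0 members called by edgeR each time (3 to 5 at an unadjusted p under 0.05). Cdkn2c in number 1 against the others was 0.115 with upper-quartile scaling, no longer past the threshold.

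Over all genes, 4 higher and 4 lower were called without a block. The counts of higher and lower were 456 and 884 with the replicate block, 327 and 983 with upper-quartile scaling and the block, 2 higher with upper-quartile scaling alone, 56 and 188 with DESeq2, 502 and 686 with DESeq2 and the block, 510 and 935 with number 1 as block, 158 and 530 with KO 2 and KO 3 summed, and 251 and 492 in numbers 2 and 3 alone. They ranged from 0 to 7 and 0 to 14 with 1 library left out (unadjusted p under 0.05 for 499 to 1352 genes), with the most, 7 and 14, without WT 1. With 1 number left out and the block they ranged from 359 to 569 and from 678 to 887 (738 lower without number 2). Using the longest transcript changed per-length levels of Cdkn1a to 677 in WT and 536 in KO, and left the order of members in each group as reported except that Cdkn2a lay above Cdkn2d in WT. Every member had at least 145 counts per library, and 3 libraries a group limit the precision; whether they are biological replicates is not stated in the labels.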
